A study of Arabidopsis thaliana with 12 samples.

Results

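The nuclear genome of *Arabidopsis* Columbia carries a large insertion of mitochondrial DNA on chromosome 2. The genes annotated in it were described across seedlings of the *cry1* mutant and of WT at 44°C and 22°C. The set was defined by gene identifier, from AT2G07667 to AT2G07835 by number, with any count above 0 in the 12 libraries. It held 79 of the 26891 genes in the deposited table, and 76 of the 79 lay inside the insertion. AT2G07680 (ABCC13, an ABC transporter), AT2G07690 (MCM5, a subunit of the DNA replication helicase) and AT2G07805 (a long noncoding RNA) fall in the number range but lie outside the insertion, and they were kept as a contrast.

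Seedlings of ecotype Columbia were grown at 22°C in continuous light and then spent 1 day in blue light before sampling. The labels give an age of 8 days, whereas the study's methods give a shorter growth period. The 4 groups of 3 libraries each were the *cry1* mutant after 2 h at 44°C, WT after 2 h at 44°C, the *cry1* mutant kept at 22°C and WT kept at 22°C, all of them in blue light. The mutant lacks cryptochrome 1, a blue-light receptor, and was studied as a single line. Total RNA came from whole seedlings and was depleted of ribosomal RNA, although the labels also name polyA RNA. In such bulk samples fewer cells of a type and less RNA per cell cannot be told apart.

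Library totals ranged from 10539271 to 21752824 counts. *CRY1* (AT4G08920) had 0 to 0.26 CPM (counts scaled to the library total) in the *cry1* libraries, against 151 to 226 CPM in the WT libraries, so that the genotype labels held in all 12. Markers of green tissue (4 genes, among them RBCS1A, a small subunit of Rubisco) took 0.371% to 0.38% of counts in *cry1* at 44°C, 0.516% to 0.623% in WT at 44°C, 1.43% to 1.54% in *cry1* at 22°C and 2.47% to 2.63% in WT at 22°C. Markers of roots (3 genes) took 0.0257% to 0.0345% at 44°C and 0.403% to 0.486% at 22°C, and markers of seeds (3 genes) 0.00487% to 0.0104% in *cry1* at 44°C, 0.000259% to 0.00103% in WT at 44°C, 0.00582% to 0.0347% in *cry1* at 22°C and 0.00165% to 0.00286% in WT at 22°C. The seed markers did not overlap between genotypes at either temperature. Each of the 10 markers had counts in every group.

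Plant mitochondria keep a small genome that encodes part of the respiratory chain, some ribosomal proteins and factors that mature cytochrome c, while most mitochondrial proteins are encoded in the nucleus. Pieces of organelle DNA move into nuclear chromosomes over evolution, and the chromosome 2 insertion of *Arabidopsis* is a well-known case. Transcripts of plant mitochondria undergo RNA editing, in which particular cytidines become uridines, whereas a genomic copy still carries the cytidine. Plant mitochondrial genomes also hold plastid sequences, so a mitochondrial insertion can bring plastid-like stretches into the nucleus.

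In the reference (RefSeq TAIR10.1) the insertion spanned chr2:3239038-3509765, 270728 bases. Alignments of at least 1000 bases to the mitochondrial genome of the same assembly covered 99.6% of it, with 99.91% identity. Inside it lay 126 genes of the table, the 76 described here and 50 with other identifiers. Of the 76, 74 matched mitochondrial DNA over at least 90% of their exonic sequence and 67 over all of it, and 33 were identical to it in a single stretch. They fell into 19 genes that copy at least 100 bases of a mitochondrial coding sequence, 54 with other mitochondrial sequence and 3 with plastid-like sequence. The deposited table lists 0 genes of the mitochondrial or plastid genomes. Outside edited sites, reads from an identical nuclear copy and organelle transcript cannot be told apart by sequence. Gene counts do not show the bases at editing sites, so each value below is a count assigned to the nuclear identifier. It is not a measure of transcription from chromosome 2.

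The sequences show how close the match is. AT2G07671 holds the complete coding sequence of *atp9*, the ring subunit of ATP synthase, in 225 bases (chr2:3251856-3252080, minus strand, exonic). All 225 bases equal those of the mitochondrial gene, and capitals mark the 5 cytidines annotated there as C-to-U editing sites.
AT2G07671: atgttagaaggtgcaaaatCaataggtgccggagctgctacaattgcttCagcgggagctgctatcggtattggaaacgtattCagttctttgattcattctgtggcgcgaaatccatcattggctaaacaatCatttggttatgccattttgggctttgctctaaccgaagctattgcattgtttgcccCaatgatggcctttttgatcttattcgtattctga

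The first 120 coding bases of *cob*, which encodes cytochrome b of complex III, are likewise identical in AT2G07727 (chr2:3450863-3450982, plus strand, exonic) and in the mitochondrial gene. Capitals mark annotated editing sites, 2 in this stretch of the 14 in the coding sequence.
AT2G07727: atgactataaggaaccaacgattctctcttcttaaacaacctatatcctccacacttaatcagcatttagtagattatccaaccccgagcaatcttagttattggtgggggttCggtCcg

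AT2G07691, annotated as an uncharacterized protein, had the largest heat change of the 77 tested genes. Its first 150 coding bases (chr2:3340168-3340317, minus strand, exonic) also occur without a difference in mitochondrial DNA, where the gene's match lies 1214 bases from the nearest coding exon, one of *nad2*. No base is in capitals.
AT2G07691: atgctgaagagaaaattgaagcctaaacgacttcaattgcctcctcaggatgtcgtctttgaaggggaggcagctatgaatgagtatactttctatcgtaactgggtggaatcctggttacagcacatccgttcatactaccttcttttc

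The plastid-like genes differ from these. AT2G07732 resembles *rbcL*, the plastid gene for the large subunit of Rubisco, with 96.86% identity over 573 bases, and mitochondrial DNA with 99.73% identity over 740 bases. A stretch of 120 coding bases (chr2:3468578-3468697, minus strand, exonic) is given beside the plastid bases, with the 4 differing positions in capitals. The version in AT2G07732 occurs unchanged in mitochondrial DNA.
AT2G07732: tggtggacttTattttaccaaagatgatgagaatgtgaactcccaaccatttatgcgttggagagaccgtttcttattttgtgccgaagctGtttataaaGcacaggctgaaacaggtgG
plastid rbcL: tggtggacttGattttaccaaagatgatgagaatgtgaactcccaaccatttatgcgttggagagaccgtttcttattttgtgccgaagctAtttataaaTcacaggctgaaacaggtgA

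AT2G07739 resembles plastid *ycf1*, a large plastid reading frame, with 97.08% identity over 821 bases, and is identical to mitochondrial DNA over 888 bases. Its stretch of 120 bases (chr2:3495640-3495759, minus strand, exonic) is shown for the same reason, with 5 differing positions in capitals.
AT2G07739: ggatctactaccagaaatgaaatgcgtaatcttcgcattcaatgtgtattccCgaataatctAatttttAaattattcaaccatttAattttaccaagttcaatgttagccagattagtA
plastid ycf1: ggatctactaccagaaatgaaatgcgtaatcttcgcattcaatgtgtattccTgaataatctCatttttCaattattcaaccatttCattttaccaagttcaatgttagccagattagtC

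The counts themselves bear on how reads were assigned. RSEM, the counting tool named in the methods, splits a read that fits several genes, which leaves values that are not whole. Among the 76 insertion genes, 48 matched or overlapped no other gene of the table, and 46 of these 48 held whole values (within 1e-06) in all 12 libraries. The exceptions were AT2G07732 (*rbcL*-like) and AT2G07739 (*ycf1*-like). Of the other 28, 21 held a value that was not whole in at least 1 library. Of the 33 genes identical to mitochondrial DNA, 23 matched or overlapped no other gene of the table, and 22 of the 23 were whole throughout, *atp9* among them. Whole values are common in the table, where 84.1% of genes with counts were whole in all 12 libraries, against 68.4% of the members. The sources used here do not say whether the index for counting held the organelle genomes, or whether counting used strand. Values of genes that share sequence depend on that split and are uncertain. Examples are AT2G07681 with AT2G07771 (both *ccmC*), AT2G07727 (*cob*) with AT2G07718 (130 coding bases of *cob*) and AT2G07698 (*atp1*) with AT2G07777.

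Few genes carried most of the reads. AT2G07732 (*rbcL*-like) ranked first of the 26891 genes in each of the 4 groups, both by CPM and per length as FPKM (fragments per kilobase of exon, scaled to the library total). It had 20700, 21478 and 22073 CPM in *cry1* at 44°C, 31056, 33744 and 36381 CPM in WT at 44°C, 16294, 16767 and 17667 CPM in *cry1* at 22°C and 22745, 23253 and 24901 CPM in WT at 22°C. The 4 groups did not overlap, and WT at 44°C was the highest. AT2G07671 (*atp9*) came next among these genes, at rank 2 to 4 of the table by FPKM. The 6 most abundant, AT2G07732, AT2G07671, AT2G07698 (*atp1*), AT2G07727 (*cob*), AT2G07741 (*atp6*) and AT2G07687 (*cox3*), held 91.6% of the counts of the 79 in *cry1* at 44°C, 93.7% in WT at 44°C, 92.1% in *cry1* at 22°C and 94.2% in WT at 22°C. At the other end 14 members averaged under 1 CPM, and the median member averaged 12.7 CPM.

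Per length, 5 copies of mitochondrial genes stood highest in one order. In WT at 44°C AT2G07671 (*atp9*) averaged 20011 FPKM, AT2G07698 (*atp1*) 3288 FPKM, AT2G07741 (*atp6*) 2074 FPKM, AT2G07687 (*cox3*) 1593 FPKM and AT2G07727 (*cob*) 1232 FPKM. The order of these 5 means was the same in the other 3 groups. Lower down, AT2G07707 (*atp8*, a membrane subunit of ATP synthase) averaged 553 FPKM, AT2G07689 (*nad2*, a membrane subunit of complex I) 388 FPKM, AT2G07725 (*rpl5*, a protein of the large ribosomal subunit) 334 FPKM and AT2G07771 (*ccmC*, a factor of cytochrome c maturation) 204 FPKM. AT2G07689 and AT2G07725 were in the other order at 22°C in both genotypes, with 177 FPKM against 196 FPKM in *cry1* and 139 FPKM against 149 FPKM in WT, where the gap was smaller than the SD of AT2G07689 (12.8 FPKM, n = 3).

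**Figure D1:**
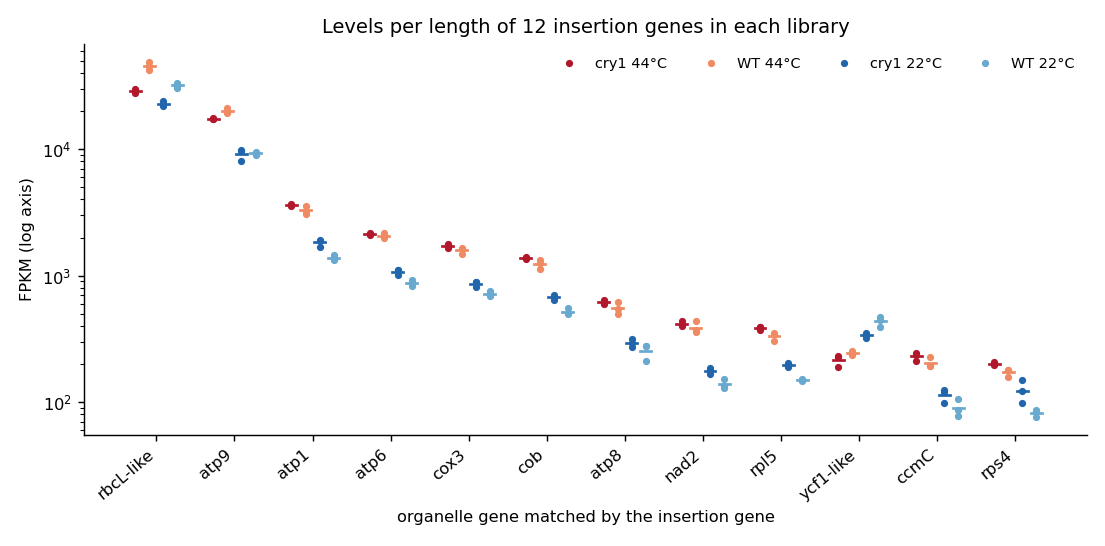
FPKM on a log axis of 12 insertion genes in each library, named by the organelle gene they match; dots are libraries and short lines group means (n = 3). The rbcL-like gene lies highest in WT at 44°C, the 10 genes named for mitochondrial genes lie higher at 44°C than at 22°C in both genotypes, and the ycf1-like gene lies lower at 44°C, an order that median-ratio size factors turned in cry1 (0.55).

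Together the 79 genes took 5.61%, 5.78% and 5.77% of counts in the libraries of *cry1* at 44°C, 6.64%, 6.79% and 7.46% in WT at 44°C, 3.33%, 3.62% and 3.73% in *cry1* at 22°C, and 3.97%, 3.89% and 4.12% in WT at 22°C. The groups did not overlap in any of the 4 comparisons. The mean share of WT was 6.97% ± 0.438 at 44°C against 3.99% ± 0.115 at 22°C, and in *cry1* it was 5.72% ± 0.0959 at 44°C and 3.56% ± 0.208 at 22°C (SD, n = 3 each). An exact two-sided permutation test over libraries gave p = 0.10 for each of the 4 comparisons, the smallest value that 3 against 3 allows. On the median-ratio scale *cry1* and WT at 44°C overlapped (exact permutation p = 0.20), while the groups of the remaining comparisons did not.

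Without AT2G07732 the share was 3.58% ± 0.0494 in *cry1* and 3.59% ± 0.21 in WT at 44°C, with overlap (exact permutation p = 1.00, n = 3 each). At 22°C it was then 1.87% ± 0.148 in *cry1* and 1.63% ± 0.0687 in WT, the reverse of the order with AT2G07732 and also with overlap (exact permutation p = 0.20, n = 3 each). The higher share at 44°C remained without it, at 3.59% against 1.63% in WT and 3.58% against 1.87% in *cry1*, with no overlap in either genotype (exact permutation p = 0.10 for each, n = 3).

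**Figure D2:**
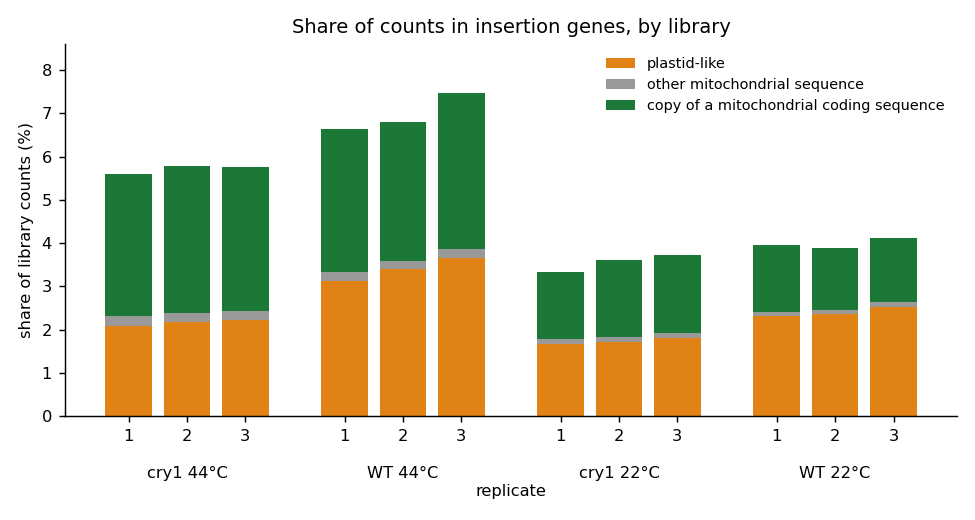
Share of library counts (%, stacked bars from 0) in insertion genes, 1 bar per library and 3 replicates per group, split into plastid-like sequence, other mitochondrial sequence and copies of mitochondrial coding sequences. The coding copies of WT averaged 3.37% at 44°C against 1.49% at 22°C, and the plastid-like part is smaller in cry1 than in WT at both temperatures.

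Heat was compared first, 44°C against 22°C within each genotype. Of the 79 genes 77 passed the filter on low values. In WT 62 of the 77 rose and 4 fell, with a median log2 fold change of 1.12. Of all 21307 genes tested 15.3% rose and 61.1% fell in WT, and their median was -0.86. In *cry1* 55 of the 77 rose and 3 fell, with a median of 0.93, where 11.3% of all tested genes rose and 72.9% fell, with a median of -1.24. A gene was said to rise or fall at a Benjamini-Hochberg adjusted p under 0.05 in edgeR's quasi-likelihood test, fitted on the whole table with library totals as the scale. All libraries of 44°C lay above all of 22°C for 64 members in WT and 57 in *cry1*, and below for 4 in each. Of all tested genes 16.0% lay wholly above and 61.7% wholly below in WT, and 11.8% above and 74.0% below in *cry1*.

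These changes are relative to the library total, and most genes of the table fell on that scale. With median-ratio size factors the median of all tested genes moved up by 0.81 in WT and 1.19 in *cry1*, to -0.05 in both. The members then had a median of 1.94 in WT, with 68 rising and 1 falling, and of 2.12 in *cry1*, with 72 rising and 2 falling, where 34.4% and 35.2% of all tested genes rose. On the library-total scale the members' median stood 1.98 above that of all tested genes in WT and 2.17 above it in *cry1*.

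The copies of mitochondrial coding sequences moved together. All 19 rose in WT, by log2 fold changes of 0.57 to 1.81 with a median of 1.16, where 15.3% of all tested genes rose. All 19 rose there with median-ratio size factors too, where 34.4% of all tested genes did. In *cry1*, where 11.3% of all tested genes rose, 18 of 19 rose, with a median of 0.99. The exception was AT2G07681 (*ccmC*), with 0.34. Its call in WT (0.97, adjusted p = 0.0435 in edgeR) was lost on leaving out WT at 44°C replicate 3 (0.59), *cry1* at 22°C replicate 2 (0.97) or WT at 22°C replicate 1, 2 or 3 (0.96, 1.01 and 0.95).

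The 4 ATP synthase genes lay close together. AT2G07671 (*atp9*) had 14892, 15196 and 16499 CPM in WT at 44°C, against 7350, 6952 and 7216 CPM in WT at 22°C. In *cry1* it had 13377, 13540 and 13607 CPM at 44°C, against 6230, 7622 and 7459 CPM at 22°C. In both genotypes every heated library lay above every unheated one, with log2 fold changes of 1.11 ± 0.08 in WT and 0.93 ± 0.08 in *cry1* (SE, adjusted p = 6.71e-11 and 8.92e-10 in edgeR). In WT AT2G07698 (*atp1*, the alpha subunit of the catalytic head) rose by 1.25, AT2G07741 (*atp6*, a subunit of the proton channel) by 1.24 and AT2G07707 (*atp8*) by 1.12. In *cry1* AT2G07698 rose by 0.98, AT2G07741 by 0.99 and AT2G07707 by 1.06.

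Complex I, which takes electrons from NADH, was represented by 3 copies. AT2G07751 (*nad3*) had 16.1, 19.1 and 18.2 CPM in WT at 44°C, against 5.73, 4.41 and 5.14 CPM in WT at 22°C. This gave a log2 fold change of 1.81 ± 0.17, the highest of the 19 copies in WT, and it rose by 1.48 in *cry1*. AT2G07689 (*nad2*) rose by 1.49 in WT and 1.23 in *cry1*, and AT2G07785 (part of *nad1*) by 1.16 in WT and 1.08 in *cry1*.

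Complex III passes electrons to cytochrome c, and complex IV is the terminal oxidase. AT2G07727 (*cob*) had 4063, 3636 and 4287 CPM in WT at 44°C, against 1789, 1634 and 1620 CPM in WT at 22°C, a log2 fold change of 1.25 ± 0.08. In *cry1* it rose by 1.03. AT2G07718 holds only 130 coding bases of *cob*, with fragments of *atp8* and *nad4*, in 5799 exonic bases. It rose by 1.37 in WT and 1.17 in *cry1*. AT2G07687 (*cox3*) had 1590 ± 92.1 CPM in WT at 44°C, against 714 ± 33.3 CPM in WT at 22°C (SD, n = 3 each), and rose by 1.16 in WT and 0.99 in *cry1*.

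The 5 ribosomal protein genes had a median of 1.13 in WT and 0.78 in *cry1*, where the 4 ATP synthase genes had 1.18 and 0.99. Beside AT2G07681, 3 genes held parts of the machinery that attaches heme to cytochrome c. AT2G07768 (*ccmFN2*) rose by 1.38 in WT and 1.52 in *cry1*, AT2G07771 (*ccmC*) by 1.18 and 1.00, and AT2G07815 (part of *ccmFC*) by 0.91 and 0.60. Of the 5 ribosomal protein genes AT2G07675 (*rps12*) had the highest value, 1.33 in WT and 1.31 in *cry1*, and AT2G07696 (*rps7*) the lowest, 0.57 and 0.38. Between them AT2G07725 (*rpl5*) rose by 1.16 and 0.98, AT2G07715 (*rpl2*) by 1.13 and 0.78, and AT2G07734 (*rps4*) by 1.06 and 0.71.

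The genes with other mitochondrial sequence were more spread. Of 53 tested 41 (77.4%) rose and 1 fell in WT, and 36 (67.9%) rose in *cry1*. Of all tested genes 15.3% rose in WT and 11.3% in *cry1*. The log2 fold changes of the 53 ranged from -0.75 to 5.73 in WT, and 6 of them rose by 2 or more there, where the highest coding copy reached 1.81. AT2G07691 had 42, 35 and 27 counts in WT at 44°C, against 0, 1 and 1 counts in WT at 22°C, a ratio of 61.6 once scaled to library totals (95% counting interval 16.6 to 516, exact). In *cry1* it had 50, 62 and 69 counts at 44°C, against 3, 1 and 7 counts at 22°C, a ratio of 21.0 (11.5 to 42.9). These intervals cover counting error only, and the groups did not overlap in either genotype.

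AT2G07702 had 4.37, 4.26 and 4.49 CPM in WT at 44°C, against 0.565, 0.63 and 0.711 CPM in WT at 22°C, a log2 fold change of 2.77 ± 0.27, and it rose by 2.78 in *cry1*. AT2G07795 rose by 2.58 in WT and 2.24 in *cry1*, and AT2G07704 by 2.53 and 1.97. All 3 are annotated as uncharacterized, and in mitochondrial DNA their matches lie 3287, 7937 and 6407 bases from the nearest coding exon. AT2G07704 also matches another table gene over its whole length. AT2G07706 rose by 2.21 in WT and 1.55 in *cry1*, and AT2G07722 by 2.47 and 1.43. AT2G07701 rose by 2.28 in *cry1* and 1.74 in WT, a call in WT that was lost without WT at 22°C replicate 2 (1.46).

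Among the more abundant of this group, AT2G07749, annotated as a mitovirus RNA-dependent RNA polymerase (mitoviruses replicate in mitochondria), rose by 1.87 in WT and 1.57 in *cry1*. AT2G07695, annotated as similar to cytochrome c oxidase subunit II, rose by 1.28 and 1.06. Of genes annotated as uncharacterized, AT2G07686 rose by 1.66 in WT, AT2G07835 by 1.62, AT2G07672 by 1.18, AT2G07683 by 1.14, AT2G07697 by 1.12, AT2G07708 by 1.03, AT2G07776 by 0.95 and AT2G07678 by 0.92. AT2G07773, annotated as a cytochrome B/B6 protein, rose by 0.98 in WT and AT2G07719, annotated as a putative membrane lipoprotein, by 0.83. All 10 rose in *cry1* as well, by 0.55 to 1.55.

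A few genes of this group had smaller changes. AT2G07777, which carries the product name of ATP synthase subunit 9 but shares sequence with AT2G07698, had 259.7 ± 30.0 CPM in WT at 44°C and 199.6 ± 7.62 CPM in WT at 22°C (SD, n = 3 each), a log2 fold change of 0.38 ± 0.09 where AT2G07671 (*atp9*) gave 1.11. AT2G07674, whose match lies 102 bases from *nad3* in mitochondrial DNA, rose by 0.45 in WT and 0.29 in *cry1*. AT2G07779 rose by 0.65 in WT and had 0.22 in *cry1* without passing the test. AT2G07784 fell in WT, with 1.9, 1.84 and 1.78 CPM at 44°C against 2.1, 3.5 and 3.64 CPM at 22°C, a log2 fold change of -0.75. That call was lost without WT at 22°C replicate 2 (-0.64) or replicate 3 (-0.62), and the sign turned with median-ratio size factors (0.07).

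**Figure D3:**
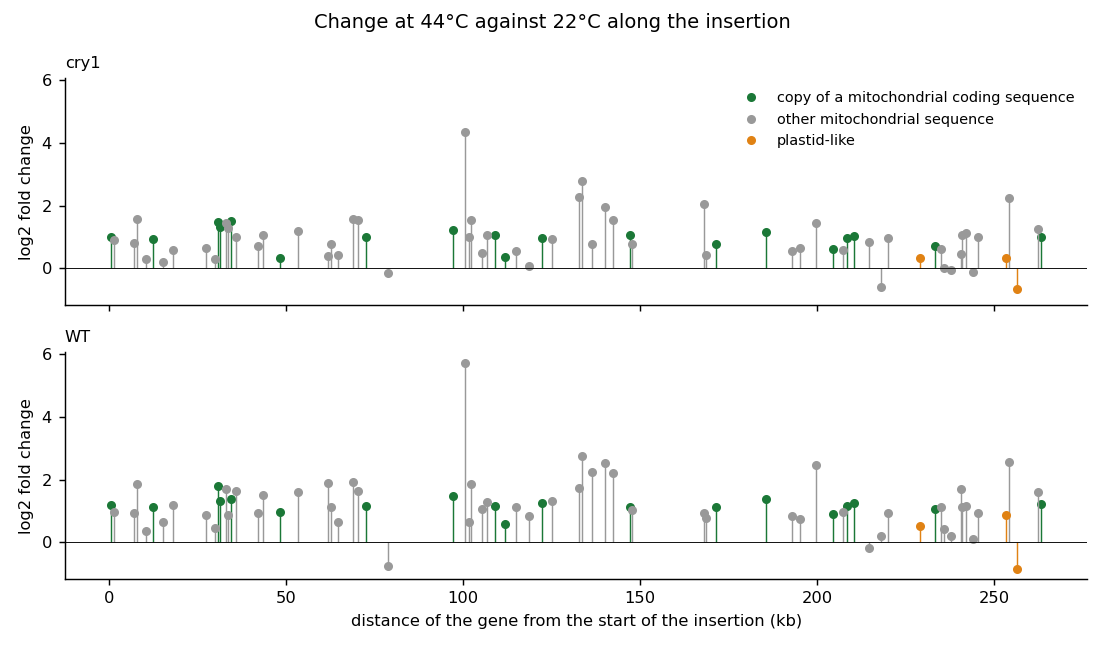
Log2 fold change at 44°C against 22°C of each tested insertion gene in cry1 (above) and WT (below) against its distance from the start of the insertion in kb, coloured by class. AT2G07691 stands highest in both genotypes (4.34 in cry1 and 5.73 in WT), and the ycf1-like gene is the lowest of the plastid-like genes.

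The plastid-like genes did not share one direction. AT2G07732 (*rbcL*-like) rose by 0.51 ± 0.08 in WT and 0.34 ± 0.08 in *cry1*. AT2G07738, which matches plastid *psbD* (a photosystem II reaction centre gene) over 112 bases at 90.18% identity, rose by 0.88 in WT and had 0.34 in *cry1* without passing the test. AT2G07739 (*ycf1*-like) had 209.7, 226 and 215 CPM in WT at 44°C, against 395, 346 and 418 CPM in WT at 22°C, a log2 fold change of -0.83 ± 0.09. In *cry1* AT2G07739 fell by 0.65, but with median-ratio size factors it rose there by 0.55. In WT its call was lost on that scale (-0.02). Its values were not whole in any of the 12 libraries.

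The 2 tested genes outside the insertion fell, where 61.1% of all tested genes fell in WT and 72.9% in *cry1*. With median-ratio size factors 1 of the 77 members fell in WT, so at least 1 of these 2 lost its call there. MCM5 had 6.45, 6.68 and 6.26 CPM in WT at 44°C, against 15.1, 14.1 and 15.9 CPM in WT at 22°C, a log2 fold change of -1.21, and in *cry1* it fell by 2.03. ABCC13 fell by 1.38 in WT and by 2.07 in *cry1*. Of the 50 other genes inside the insertion 41 were tested. Of these 30 (73.2%) rose in WT with a median of 1.24, where 15.3% of all tested genes rose. In *cry1* 31 (75.6%) rose with a median of 1.06, where 11.3% of all tested genes rose. The share of counts of the 50 in WT was 0.122% ± 0.00973 at 44°C, against 0.0557% ± 0.00269 at 22°C (SD, n = 3).

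**Figure D4:**
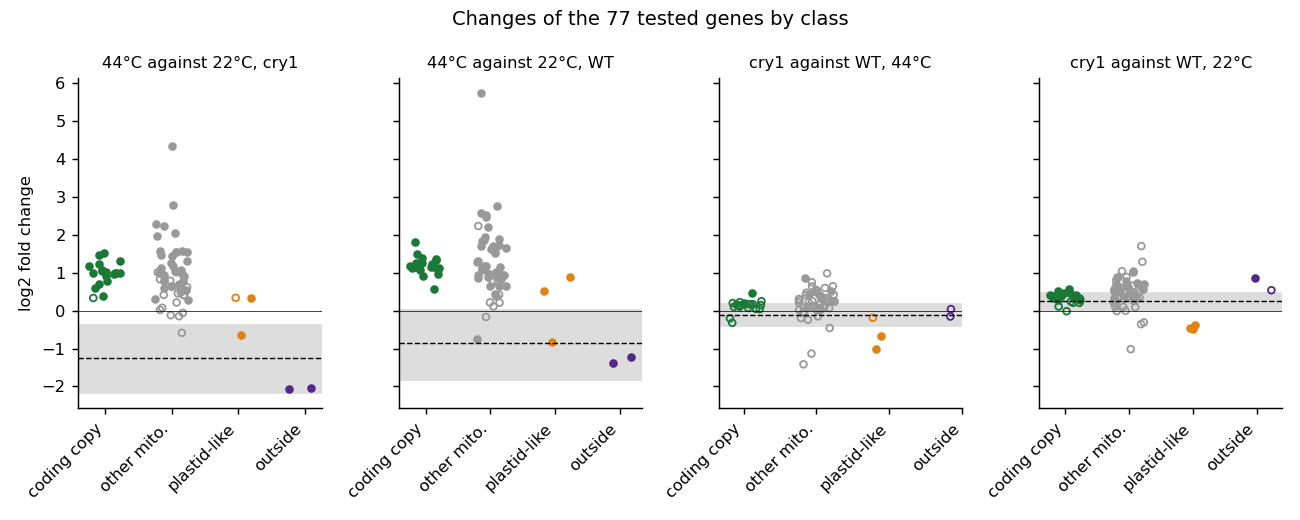
Log2 fold changes of the 77 tested genes in 4 comparisons, by class; filled dots passed an adjusted p of 0.05 in edgeR. The grey band and dashed line are the quartiles and median of all 21307 tested genes. In both heat comparisons the coding copies lie above the band, and the 2 genes outside the insertion lie below 0, within the band.

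Respiratory complexes combine mitochondrial and nuclear subunits, so the nuclear genes for complexes I to IV, cytochrome c and ATP synthase (63 genes, all tested) were set beside the copies. In WT 7 rose and 38 fell, with a median of -0.27, but with median-ratio size factors 44 rose and 7 fell, with a median of 0.55. In *cry1* 6 rose and 49 fell, with a median of -0.51, but with median-ratio size factors 54 rose and 3 fell, with a median of 0.68. On the library-total scale 60.3% of the list fell in WT and 77.8% in *cry1*, where 61.1% and 72.9% of all tested genes fell. With median-ratio size factors 69.8% of it rose in WT and 85.7% in *cry1*, where 34.4% and 35.2% of all tested genes rose. The direction of the nuclear genes thus turned with the scale. Median-ratio size factors moved the median of all tested genes up by 0.81 in WT and 1.19 in *cry1*. Copies that had already risen could not turn under such a shift, so no contrast with the nuclear genes follows from it.

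Single nuclear genes stood far from the rest. AT5G25450, a subunit of complex III, had 238, 287 and 249 CPM in WT at 44°C, against 2.34, 1.19 and 1.34 CPM in WT at 22°C, a log2 fold change of 7.32 ± 0.17. In *cry1* it rose by 7.95. AT5G61310, from the complex IV list, rose by 1.72 in WT, and CYTC-2 (AT4G10040, a cytochrome c) rose by 1.72 in *cry1*. AT3G15640, also from the complex IV list, fell by 2.60 in WT.

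The 4 nuclear genes for mitochondrial RNA synthesis and decay fell in both genotypes on the library-total scale. On that scale 61.1% of all tested genes fell in WT and 72.9% in *cry1*. With median-ratio size factors 1 of the 4 rose and 1 fell in WT, and 1 rose and 3 fell in *cry1*. Of all tested genes 35.6% fell in WT and 36.4% in *cry1* with those factors. AT1G68990 (RPOTM, the mitochondrial RNA polymerase) had 13.9, 10.1 and 11.7 CPM in WT at 44°C, against 29.9, 29.6 and 28.2 CPM in WT at 22°C, a log2 fold change of -1.30, and it fell by 2.34 in *cry1*. AT5G14580 (mitochondrial polynucleotide phosphorylase, an exoribonuclease) fell by 0.97 in WT and by 2.65 in *cry1*.

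**Figure D5:**
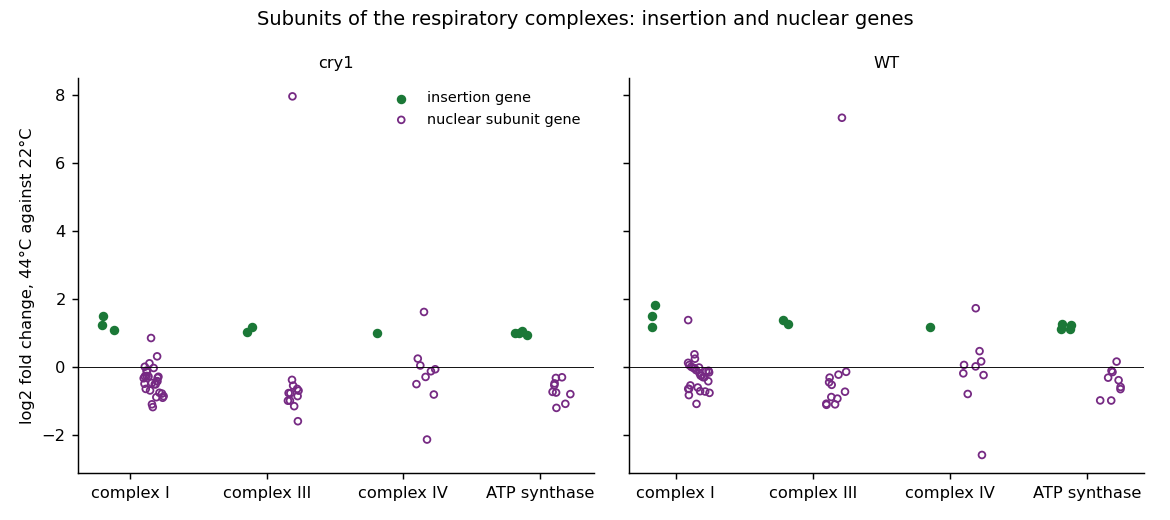
Log2 fold change at 44°C against 22°C in cry1 (left) and WT (right) for subunit genes of 4 respiratory complexes, filled for insertion genes and open for nuclear genes, on the library-total scale. The insertion genes lie between 0.93 and 1.81, and most nuclear genes lie below 0. AT5G25450 is the point above 7. The complex III insertion genes are AT2G07727 and AT2G07718, the latter with only 130 coding bases of cob in 5799 exonic bases.

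Genotypes were compared next. At 22°C 38 of the 77 members were higher in *cry1* than in WT and 3 were lower, with a median of 0.44. At that temperature 31.6% of all tested genes were higher in the mutant and 7.35% lower, with a median of 0.26. All libraries of *cry1* lay above all of WT for 44 members and below for 3, where 44.1% of all tested genes lay wholly above and 9.65% wholly below. With median-ratio size factors 10 members were higher and 4 lower and their median was 0.19, where 7.02% of all tested genes were higher. Leaving out WT at 22°C replicate 2 gave 27 in place of 38.

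Of the 19 coding copies 13 were higher in *cry1* at 22°C, but with median-ratio size factors 1 was higher and 1 lower. AT2G07698 (*atp1*) had 4086, 4601 and 4712 CPM in *cry1* at 22°C, against 3561, 3258 and 3290 CPM in WT at 22°C, without overlap, a log2 fold change of 0.41 ± 0.08 (adjusted p = 0.000573 in edgeR). AT2G07734 (*rps4*) was higher by 0.58, AT2G07751 (*nad3*) by 0.53, AT2G07675 (*rps12*) by 0.48 and AT2G07727 (*cob*) by 0.38. The call of AT2G07751 was lost without *cry1* at 22°C replicate 1 (0.46) or 3 (0.46) or WT at 22°C replicate 2 (0.43). AT2G07671 (*atp9*) had -0.01 and did not pass the test.

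Among the other mitochondrial sequences 24 of 53 (45.3%) were higher in *cry1* at 22°C, where 31.6% of all tested genes were. With median-ratio size factors 8 (15.1%) were higher, where 7.02% of all tested genes were. AT2G07722 had 1.38, 2.1 and 2.23 CPM in *cry1* at 22°C, against 0.887, 0.909 and 0.949 CPM in WT at 22°C, without overlap, a log2 fold change of 1.04. AT2G07667 was higher by 1.02, a call lost without *cry1* at 22°C replicate 2 (1.12) or 3 (0.79) or WT at 22°C replicate 1 (1.14), 2 (1.03) or 3 (0.89). AT2G07704 was higher by 0.89, a call lost without *cry1* at 22°C replicate 2 (0.78) or WT at 22°C replicate 2 (0.70). MCM5, outside the insertion, was higher by 0.86.

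At 44°C fewer members passed the test between genotypes. In *cry1* 8 were higher and 2 lower, with a median of 0.16, where 8.64% of the tested table was higher and 17.3% lower, with a median of -0.11. All libraries of *cry1* lay above all of WT for 21 members and below for 5, where 13.4% of all tested genes lay wholly above and 24.3% wholly below. AT2G07674 had 102, 101 and 88.2 CPM in *cry1* at 44°C, against 74.6, 64.8 and 69.3 CPM in WT at 44°C, without overlap, a log2 fold change of 0.48 ± 0.09. AT2G07686 was higher by 0.51, and AT2G07784 by 0.85, a call lost without WT at 44°C replicate 3 (0.83).

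Of the coding copies AT2G07675 (*rps12*) and AT2G07725 (*rpl5*) were higher in *cry1* at 44°C. AT2G07675 was higher by 0.46, a call lost without *cry1* at 44°C replicate 2 (0.32). AT2G07725 was higher by 0.21, a call lost without *cry1* at 44°C replicate 1 (0.20) or 2 (0.20) or WT at 44°C replicate 2 (0.15). The count of 8 fell to 5 without *cry1* at 22°C replicate 2 or WT at 44°C replicate 3, to 4 without *cry1* at 44°C replicate 1 or WT at 44°C replicate 2, and to 3 without *cry1* at 44°C replicate 2. It was 24 with median-ratio size factors, where 13.9% of all tested genes were higher.

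Of the 3 plastid-like genes 2 were lower in *cry1* at 44°C and all 3 at 22°C, where 17.3% and 7.35% of all tested genes were lower. At 44°C AT2G07732 (*rbcL*-like) had 21417 ± 688 CPM in *cry1* and 33727 ± 2663 CPM in WT (SD, n = 3 each), a log2 fold change of -0.66 ± 0.08 (adjusted p = 3.89e-06 in edgeR). At 22°C it had 16909 ± 697 CPM in *cry1* and 23633 ± 1127 CPM in WT (SD, n = 3 each), a log2 fold change of -0.48 ± 0.08 (adjusted p = 9.96e-05 in edgeR). AT2G07732 was thus lower in the mutant at both temperatures, in every library.

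AT2G07738 (*psbD*-like) had 8.36, 5.56 and 6.76 CPM in *cry1* at 44°C, against 14.2, 12.3 and 15.0 CPM in WT at 44°C, without overlap, a log2 fold change of -0.999. At 22°C it had -0.46, a call lost without *cry1* at 22°C replicate 1 (-0.42) or 2 (-0.39), WT at 22°C replicate 1 (-0.37) or 3 (-0.43), *cry1* at 44°C replicate 3 or WT at 44°C replicate 1 or 3 (-0.46 each). AT2G07739 (*ycf1*-like) was lower at 22°C, with -0.37, and had -0.19 at 44°C without passing the test. The markers of green tissue had mean shares of 0.376% in *cry1* and 0.558% in WT at 44°C and of 1.48% in *cry1* and 2.54% in WT at 22°C, and the markers of seeds of 0.00843% in *cry1* and 0.000568% in WT at 44°C and of 0.0216% in *cry1* and 0.00225% in WT at 22°C. The part of either in the differences between genotypes was not tested.

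Among the 63 nuclear genes of the respiratory chain 14 were higher and 1 was lower in *cry1* at 22°C, with a median of 0.09, but 18 were lower with median-ratio size factors, with a median of -0.16. The lower one was AT5G11770 (complex I list), with -0.22, a call lost without *cry1* at 22°C replicate 2 (-0.21) or WT at 22°C replicate 1 (-0.21) or 2 (-0.20). At 22°C 22.2% of the list were higher and 1.59% lower, where 31.6% and 7.35% of all tested genes were. With median-ratio size factors 28.6% of the list were lower there, where 13.4% of all tested genes were. At 44°C 7 of the list were higher (11.1%) and 9 lower (14.3%), with a median of -0.11, where 8.64% and 17.3% of all tested genes were. With median-ratio size factors 8 were higher (12.7%), with a median of 0.02, where 13.9% of all tested genes were higher. AT5G25450 was higher by 0.95 and AT3G15640 by 0.87.

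Finally, the heat response of *cry1* was set against that of WT. On the library-total scale 7 of the 77 members had a lower response in *cry1*, with a median difference of -0.25 over the 77, where 24.2% of all tested genes had a lower and 3.88% a higher response and their median was -0.33. The number of members with a higher response was 0 in edgeR, also at an unadjusted p under 0.05, 0 in limma and 3 in DESeq2. In DESeq2 12.3% of all tested genes had a higher response. With median-ratio size factors the median difference was 0.13, 2 members had a higher response and none of the 7 passed the test. Of all tested genes 11.5% had a higher response with those factors, and their median was 0.05.

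The 7 were AT2G07722 (-1.04), MCM5 (-0.81), AT2G07706 (-0.65), AT2G07672 (-0.58), AT2G07697 (-0.57), AT2G07779 (-0.43) and AT2G07835 (-0.35), of which AT2G07835 turned to 0.03 with median-ratio size factors. No coding copy was among the 7, but without *cry1* at 22°C replicate 1 the coding copies AT2G07734 (-0.50), AT2G07715 (-0.44), AT2G07698 (-0.33) and AT2G07741 (-0.29) passed too. AT2G07715 also passed without WT at 22°C replicate 1 (-0.42) or WT at 44°C replicate 2 (-0.40). AT2G07698 (-0.32) and AT2G07727 (-0.28) passed without WT at 44°C replicate 2. Apart from AT2G07706, each of the 7 lost its call without at least 1 library. AT2G07706 had 47.3, 44.1 and 39.5 CPM in *cry1* at 44°C and 48.6, 35.2 and 45.6 CPM in WT at 44°C. At 22°C it had 14.9, 14.4 and 15.2 CPM in *cry1*, against 8.87, 10.1 and 8.85 CPM in WT. The heated groups overlapped, and the unheated ones did not. The count of 7 changed with single libraries. It was 13 without *cry1* at 22°C replicate 1, 11 without WT at 44°C replicate 2, 4 without *cry1* at 22°C replicate 2 or WT at 44°C replicate 3, 3 without WT at 22°C replicate 2 or WT at 44°C replicate 1, 2 without *cry1* at 22°C replicate 3 and 1 without *cry1* at 44°C replicate 3.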

How the data were processed

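Expected counts of 26891 genes in 12 libraries, as deposited by the authors, were used. By the study's methods, reads of 3 independent biological replicates per group were trimmed with Trimmomatic and quantified with RSEM on TAIR10, while the labels list TopHat2 2.0.11. All identifiers were found in RefSeq TAIR10.1, the source of positions, exonic lengths and sequences. Unmapped columns with sample values numbered 0. Exonic sequences were aligned to the organelle genomes with BLAST 2.17.0 (hits of at least 50 bases, 98% identity for mitochondrial DNA). Coding copies held at least 100 coding bases of a mitochondrial gene, and plastid-like genes a plastid hit of at least 100 bases and 90% identity.

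Counts were rounded and fitted with edgeR 4.0.16 in R 4.3.3 (robust quasi-likelihood, 12 libraries, library totals as scale). The 21307 genes with a log2 mean FPKM over -5 in every group were tested, with p-values adjusted over all of them. FPKM were computed from counts and exonic lengths. The biological coefficient of variation was 0.103, replicates differed beyond sampling noise (chi-square per gene 4.65 to 13.8), and the fit was tested on simulated counts. Shares were compared by exact permutation (scipy 1.17.1). Members and lists were chosen with earlier results of these data known. Named genes were members averaging at least 20 CPM, coding copies of at least 1 CPM, up to 4 highest and 4 lowest called members and 2 highest and 2 lowest called nuclear genes per comparison, and *CRY1*. Alternatives were other scalings, DESeq2 1.42.0, limma 3.58.1, other filters, fits of the compared groups only, a replicate block, and leaving out each library.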

Additional observations from a re-analysis of the deposited data

Results flagged for a closer look

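In the edgeR fit the heat response of 7 members differed between genotypes at an adjusted p under 0.05. The log2 difference (*cry1* minus WT) was -1.04 for AT2G07722, -0.814 for AT2G07690 (MCM5), -0.654 for AT2G07706, -0.584 for AT2G07672, -0.566 for AT2G07697, -0.431 for AT2G07779 and -0.35 for AT2G07835. AT2G07697 was named after its values were seen. Of all tested genes 24.2% had a lower response in *cry1*, so 7 of 77 is a smaller share than that of all tested genes. With median-ratio size factors none of the 7 passed the test in edgeR, and AT2G07835 turned to 0.03. Groups of 3 libraries were not tested for libraries far from the others.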

How the results depend on the processing

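Over all alternatives run, 53 to 68 members rose at 44°C in WT and 51 to 72 in *cry1*. The 51 was out of 61 members tested in place of 77, under a filter of a mean FPKM of at least 1. Counts between genotypes moved more with the scale. The cause of these shifts was not tested. With TMM factors, median-ratio size factors and DESeq2, members lower at 44°C in WT numbered 2, 1 and 1 in place of 4, members higher in *cry1* at 44°C 25, 24 and 25 in place of 8, members higher in *cry1* at 22°C 12, 10 and 8 in place of 38, and the heat response was higher in *cry1* for 2, 2 and 3 in place of 0 and lower for 0, 0 and 0 in place of 7. Of all tested genes 14.5%, 13.9% and 14.2% were higher in *cry1* at 44°C under these 3 settings, and 7.83%, 7.02% and 7.18% at 22°C. The heat response was higher in *cry1* for 11.4%, 11.5% and 12.3% of them. With library totals computed without the members, 4 members were higher in *cry1* at 44°C. Under the same 3 settings AT2G07784 gave 0.041, 0.065 and 0.064 for heat in WT and 1.017, 1.045 and 1.047 in *cry1*, AT2G07739 gave 0.52, 0.548 and 0.548 for heat in *cry1*, and AT2G07835 gave 0.027, 0.029 and 0.03 for the difference in heat response. Differences in the members' share, in percentage points, were 2.97 (WT heat), 2.16 (*cry1* heat), -1.25 (*cry1* minus WT at 44°C) and -0.436 (at 22°C), against 1.96, 1.71, -0.0168 and 0.237 without AT2G07732 and 6.14, 5.95, -0.93 and -0.743 on the median-ratio scale. Leaving out each library gave 53 to 62 members higher and 3 to 4 lower for heat in WT, 52 to 57 and 3 for heat in *cry1*, 3 to 8 and 2 to 3 for *cry1* at 44°C, 27 to 41 and 2 to 3 at 22°C, and 1 to 13 lower responses, with shares of 2.72 to 3.13, 2.04 to 2.25, -1.41 to -0.999 and -0.521 to -0.32. Across groups, same-numbered libraries correlated between -0.122 and 0.304, and the others between -0.407 and 0.252. The main fit did not pair libraries by number, and whether same-numbered ones share a batch was not tested. With the replicate block the counts were 61 and 4, 55 and 3, 6 and 2, 38 and 3, and 0 and 6. The 12 libraries leave a floor of 0.138 to 0.285 CPM (3 counts), which limits the 14 members under 1 CPM.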
